A study of Mus musculus with 10 samples.

Results

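The transcriptional response to LPS in the absence of CD14 was measured on 3 of the 10 arrays of the series, chosen by their labels: 1 array of unstimulated CD14-deficient cells, 1 of CD14-deficient cells after 48 h with LPS and 1 after 60 h with LPS. The cells were dendritic cells grown from bone marrow of Cd14-/- mice on the C57BL/6 strain, aged 6 to 8 weeks. Marrow was cultured for 7 to 10 days in medium with 10% supernatant of B16 tumor cells that produce GM-CSF, and cultures were used when more than 90% of cells carried CD11c, per the labels. Cells were plated and given smooth LPS at 1 µg/ml. The unstimulated plate was harvested 24 h after plating, so LPS and a longer time in culture cannot be told apart. The other 7 arrays held wild-type C57BL/6 cells under the same conditions and cells of both genotypes given LPS with 50 nM thapsigargin, a drug that raises calcium in the cytosol. Each condition is 1 array, and the labels do not say how many mice gave each culture. The series asks which genes of apoptosis respond to LPS through calcium and NFAT.

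CD14 is a membrane-anchored and soluble protein that binds LPS and hands it to the receptor complex of TLR4 and MD-2. TLR4 signals from the cell surface through MyD88 to NF-κB and MAP kinases, which switch on cytokine genes. After uptake, which CD14 promotes, it signals through TRIF to IRF3 and type I interferon. Dendritic cells that sense LPS mature: they stop dividing, lower their uptake receptors, raise costimulatory molecules and secrete cytokines, and at high LPS doses cells without CD14 can still respond through TLR4.

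The genotype was plain on the arrays: the scaled Cd14 signal was 3.38 unstimulated, 7.35 at 48 h and 3.86 at 60 h, under the floor of 13.4 below which signals were not ranked. In wild-type cells it was 1499 unstimulated and between 15540 and 17730 in stimulated cells. Signals are MAS5 values that the authors deposited, scaled here to the same trimmed mean, 509, on every array, and 7474 of 12393 measured genes were bright enough to test. Of the defining markers of the labelled cell type, Itgax, which encodes CD11c, had signals of 7838, 892 and 6941 on the unstimulated, 48 h and 60 h arrays, and the class II genes Cd74 and H2-Ab1 were between 8156 and 14470 on all 3. The 48 h and 60 h arrays differed. Across genes the log2 signals of the 48 h array correlated at 0.809 with the unstimulated array and 0.900 with the 60 h array. With the wild-type LPS arrays they correlated at 0.841 and 0.878. The 60 h array correlated at 0.887 with the unstimulated array and at 0.920 and 0.923 with the wild-type LPS arrays. Wild-type LPS arrays correlated at 0.809 and 0.813 with the wild-type unstimulated array. Against the unstimulated array it was thus the 60 h array that differed from the wild-type LPS arrays. The RNA of the 48 h array gave 15 µg of labelled cRNA, against 38.7 µg for the unstimulated and 44.6 µg for the 60 h array. Its control probe set for the 3′ end of 18S rRNA read 269, against 9890 unstimulated and 6640 at 60 h, and its poly-A control dap read 14300, against 8730 and 7960. RNA integrity numbers were 10, 10 and 8.6 in the order unstimulated, 48 h and 60 h, and the ratio of 3′ to 5′ Gapdh probe sets was 0.736, 0.980 and 0.730. The part of these technical values in the results was not tested, and results at 48 h and 60 h are given apart below. In bulk RNA, fewer cells of a type and less RNA per cell cannot be told apart.

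**Figure D1:**
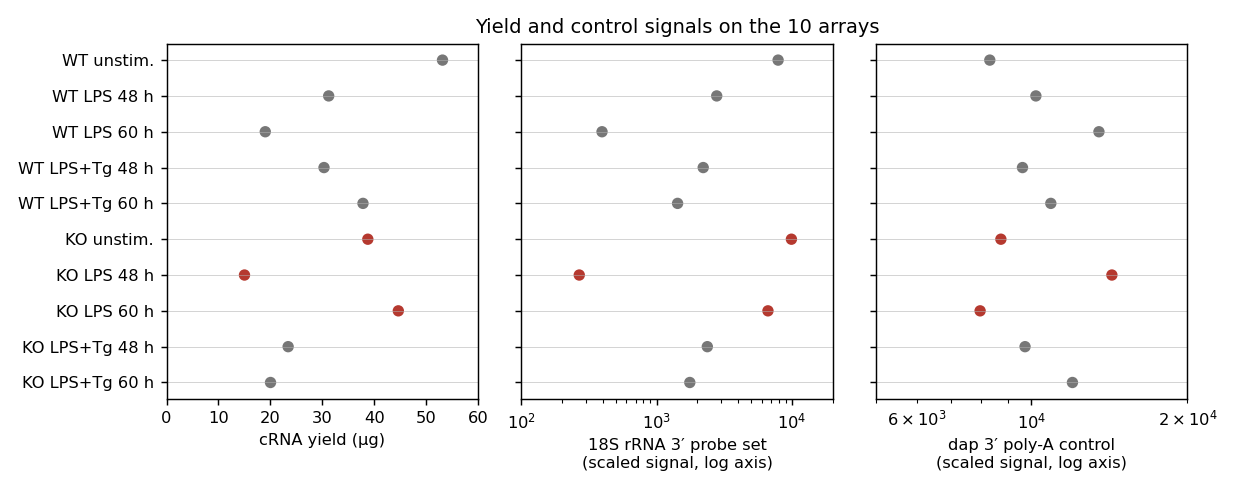
Labelled cRNA yield in µg, scaled signal of the 18S rRNA 3′ probe set and scaled signal of the dap poly-A control (both on log axes) for each of the 10 arrays. KO marks CD14-deficient and WT wild-type cells, Tg thapsigargin, and red points the 3 arrays described here. The CD14-deficient 48 h LPS array had the lowest yield (15 µg), the lowest 18S signal (269) and the highest dap signal (14300).

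Cells without CD14 answered LPS with a broad change of transcription. Of the lists followed, 9 of 18 cytokine genes, 8 of 19 maturation genes, 4 of 13 acute phase and iron genes and 3 of 10 prostaglandin and leukotriene genes rose, while Ccr2, 6 of 17 lectin and scavenger receptors and 21 of 23 genes of cell division fell. In a limma model of all 10 arrays, 162 of 7474 genes rose (2.17%) and 150 fell (2.01%) at an adjusted p of 0.05, with 1690 genes at an unadjusted p under 0.05. Counted without a test, 344 genes were at least 2-fold above the unstimulated array at both times (4.60%) and 358 were at least 2-fold below it at both times (4.79%). Of the genes that rose, 149 were also 2-fold up at both times, and of those that fell, 144 were 2-fold down at both times. A further 625 genes were 2-fold up at 48 h alone and 649 were 2-fold down at 48 h alone, against 152 and 151 at 60 h alone. The changes at both times use 1 unstimulated array and so share its error. The median change over all tested genes was 0.04 at 48 h, 0.02 at 60 h and 0.03 in the model, all on the log2 scale, and the lists below stand beside these.

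No condition was repeated, so the model, which fits 6 levels of genotype and treatment and a shift from 48 to 60 h shared by all 4 stimulated conditions, takes its spread from how far these conditions depart from that shift, with 3 residual degrees of freedom, and its p-values leave out how far cultures or mice vary. With the 48 h array of CD14-deficient cells left out, 565 genes rose (7.56%) and 625 fell (8.36%). With the 60 h array left out instead, 1525 rose (20.4%) and 1358 fell (18.2%). In these fits the LPS array that remains is adjusted by the shared shift, so the fitted change is not its plain difference from the unstimulated array. These fits also no longer count the departure of the CD14-deficient LPS pair in the spread. The calls they keep are therefore no check on the 312 genes called with both arrays. Counts from these fits within the lists below were not tested against the shares of all tested genes given here. The same count of 312 was 42 without the wild-type LPS array at 48 h or without that at 60 h, 22 without either wild-type thapsigargin array and 24 without either CD14-deficient thapsigargin array, all of which also take away a degree of freedom. Genes that rose had other probe sets for 52 of them, and 76 of those 78 probe sets were above the unstimulated array at both times. For 42 of the genes that fell, 49 of 50 other probe sets were below it at both times.

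**Figure D2:**
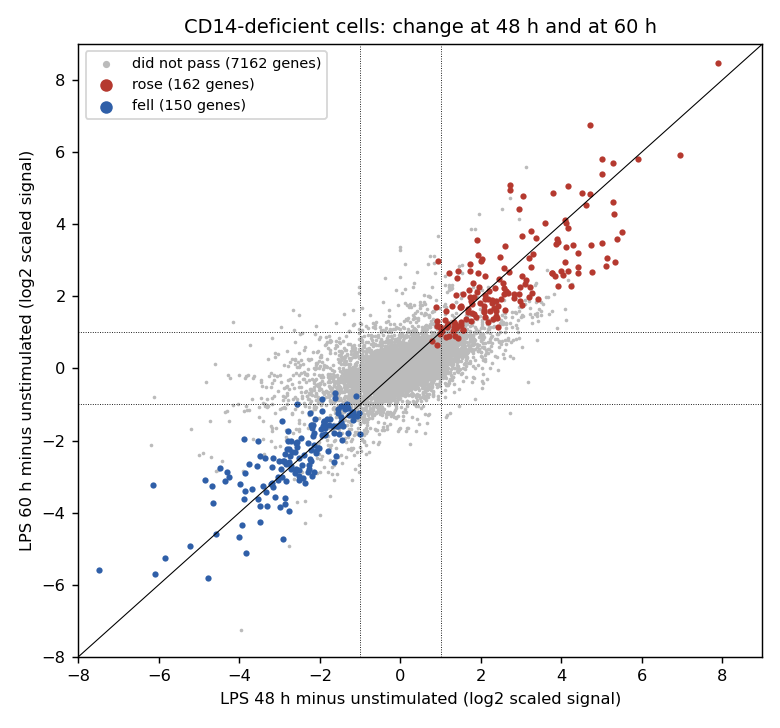
Change from the unstimulated array at 48 h (x axis) and at 60 h (y axis), both as log2 of scaled signal, for the 7474 tested genes of CD14-deficient cells. Each point is 1 gene, red rose (162), blue fell (150), grey did not pass, dotted lines mark 2-fold and the solid line equal change. Grey points spread further along the 48 h axis, where 974 genes were 2-fold up and 1023 2-fold down, against 512 and 514 at 60 h.

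Several inflammatory mediators were among the 14 largest rises that held at both times. Il6, a cytokine of fever and the acute phase response, had a signal of 71.2 unstimulated, 8829 at 48 h and 4347 at 60 h. Cxcl1, which attracts neutrophils, had 107.6, 4165 and 2662. Both genes were higher at 48 h than at 60 h and far above the unstimulated array on each LPS array, with fitted log2 changes of 6.44 ± 0.42 (adjusted p = 0.00396) and 4.95 ± 0.34 (adjusted p = 0.00437; ± is the standard error, 1 unstimulated against 2 LPS arrays). Their promoters are shown because both hold the NF-κB motif close to the start: the capitals mark each match, on either strand, in the 250 bases before the RefSeq transcription start (GRCm38.p6), Il6 at chr5:30012864-30013113, plus strand and Cxcl1 at chr5:90890995-90891244, plus strand, where 2 matches overlap.
Il6: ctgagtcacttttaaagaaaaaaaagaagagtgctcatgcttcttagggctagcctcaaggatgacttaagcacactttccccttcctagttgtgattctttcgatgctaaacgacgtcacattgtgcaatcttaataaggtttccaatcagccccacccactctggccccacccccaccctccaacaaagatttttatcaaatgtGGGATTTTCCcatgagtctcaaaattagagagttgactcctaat
Cxcl1: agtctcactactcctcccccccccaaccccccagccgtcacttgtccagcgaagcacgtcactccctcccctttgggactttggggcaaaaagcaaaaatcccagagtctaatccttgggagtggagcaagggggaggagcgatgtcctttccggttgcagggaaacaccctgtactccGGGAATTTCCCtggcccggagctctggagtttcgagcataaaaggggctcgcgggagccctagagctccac
The match begins 44 bases before the start in Il6, and the pair begin 71 and 70 bases before it in Cxcl1. Among the 162 genes that rose, 118 had a promoter in the RefSeq table, and 28 of these (23.7%) held the motif in the 300 bases from 250 before to 50 after the start. Of the genes that fell, 10 of 113 (8.85%) held it, beside 12.4% of the tested genes and 9.55% of all 27025 genes in the table. A match is a description of the letters and not a bound site.

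Enzymes and acute phase genes stood among the same largest rises. Ptgs2, the inducible cyclooxygenase of prostaglandin synthesis, read 87.9 unstimulated, 2839 at 48 h and 3714 at 60 h, a rise of 5.21 ± 0.19 (adjusted p = 0.000607). Saa3, an acute phase apolipoprotein, read 362.9, 9570 and 10410 and rose by 4.78 ± 0.24. Hamp, which encodes the iron hormone hepcidin, read 21.1, 681.5 and 1187 and rose by 5.41 ± 0.38. In all 3 genes the LPS arrays were close to each other and far from the unstimulated one. Hdc, which makes histamine from histidine, was under the floor unstimulated (2.13) and read 808.8 and 749.8 with LPS, at least 58.1-fold higher. The long noncoding RNA U90926 was at 8.29 unstimulated and reached 3204 and 4783, at least 292-fold higher. Susd2, a membrane protein with a sushi domain, was at least 45.0-fold higher (6.46, 521.8 and 695.9), and C1s1, a protease of the classical complement pathway, at least 24.6-fold higher (2.52, 241.7 and 448.5). These bounds set the LPS arrays against the floor of 13.4. Vnn3 of the vanin family differed between the LPS times, with 16.9 unstimulated, 439.5 at 48 h and 1817 at 60 h (5.73 ± 0.79, adjusted p = 0.0254). Tm4sf1, a membrane protein, read 14.7, 356.6 and 341.7, and Igfbp4, which binds insulin-like growth factors, read 192.0, 7566 and 3773. Both were high on both LPS arrays, Igfbp4 more so at 48 h.

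**Figure D3:**
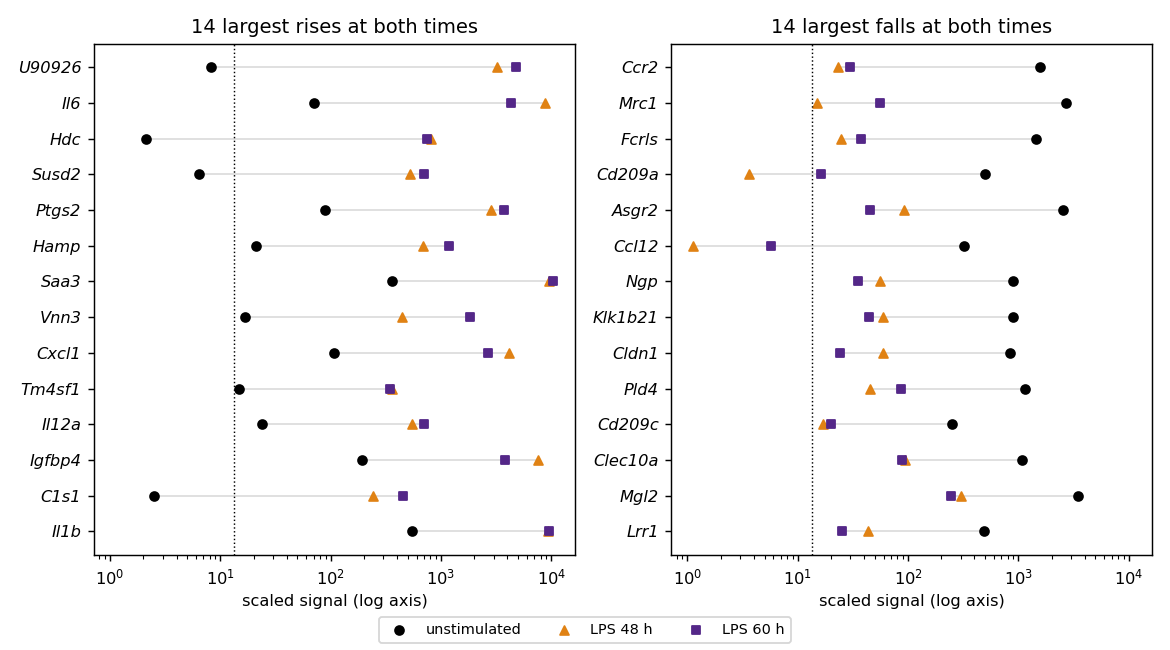
Scaled signal (log axis) of the 14 genes with the largest rises and the 14 with the largest falls at both times in CD14-deficient cells, on the unstimulated array (black circle), the 48 h LPS array (orange triangle) and the 60 h LPS array (purple square). The dotted line is the floor of 13.4. In each gene both LPS arrays lie on the same side of the unstimulated array, from Ccr2 at 1561 down to 23.0 and 29.8 to Il6 at 71.2 up to 8829 and 4347.

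Cytokine genes rose widely. Of 18 tested cytokine genes, 9 rose and none fell, with 9 not passing, and their median change was 2.41 at 48 h and 1.92 at 60 h (2.05 in the model). Leaving out the 48 h array, 12 rose and 0 fell, and leaving out the 60 h array, 13 rose and 3 fell. The subunits of interleukin 12, which drives T helper cells to make interferon gamma, were both among them: Il12a read 24.0 unstimulated, 547.8 at 48 h and 698.9 at 60 h (4.69 ± 0.28), and Il12b read 157.6, 5124 and 1767 (4.25 ± 0.46). Il12b was higher at 48 h, and Il12a differed less between the LPS times. Il1b, a pyrogenic cytokine, read 546.5, 9354 and 9440 and rose by 4.10 ± 0.18 (adjusted p = 0.00110), with LPS arrays almost alike. Il1a, its close relative, read 681.5, 3810 and 5755 (2.78 ± 0.23). Ebi3, a subunit of interleukins 27 and 35, rose by 1.89 ± 0.36 (adjusted p = 0.0488) and Vegfa, which drives vessel growth, by 2.21 ± 0.33. Csf3, the growth factor of neutrophils, rose by 2.22 ± 0.28 (adjusted p = 0.0203) but stayed dim, at 20.1 unstimulated, 67.1 at 48 h and 130.4 at 60 h. Tnf, an early inflammatory cytokine, read 782.6, 253.9 and 677.6 and did not pass (−0.92 ± 0.47, adjusted p = 0.303).

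Some chemokine genes rose and others fell. Of 19 tested chemokines 5 rose and 3 fell, against 8 and 4 with the 48 h array left out and 9 and 7 with the 60 h array left out. The median was 0.17 in the model. The 3 that fell all attract monocytes through Ccr2: Ccl2 read 6312 unstimulated, 704.5 at 48 h and 1133 at 60 h (−2.82 ± 0.21, adjusted p = 0.00531), and Ccl7 read 894.6, 62.0 and 118.7 (−3.38 ± 0.41, adjusted p = 0.0193). Ccl12 read 321.3 and then 1.13 and 5.74, both under the floor, at least 24.0-fold lower. All 3 were thus lower on both LPS arrays, and Ccl2 and Ccl7 were lowest at 48 h. The 5 that rose were the neutrophil attractants Cxcl1, Cxcl2 and Cxcl5, with Cxcl16 and Ccl5. Cxcl2 read 1688, 5536 and 7588 (1.94 ± 0.21), and Cxcl5, under the floor at 2.45 unstimulated, read 104.1 and 286.4, at least 12.9-fold higher. Cxcl16, a ligand of Cxcr6, read 1722, 9462 and 9574 (2.47 ± 0.21), and Ccl5, which attracts T cells, read 3058, 10450 and 10480 (1.77 ± 0.17). Their LPS values differed little between the times.

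Among 6 tested chemokine receptors 1 rose and 1 fell (3 and 1 without the 48 h array, 4 and 2 without the 60 h array). Ccr2, the monocyte receptor for Ccl2 and Ccl7, read 1561 unstimulated, 23.0 at 48 h and 29.8 at 60 h and fell by 5.90 ± 0.38 on the log2 scale (adjusted p = 0.00380). Its other probe sets, at 300.4 and 308.0 unstimulated, read between 1.88 and 22.7 with LPS. Ccrl2, a receptor that binds chemerin without signalling, read 299.8, 1264 and 1004 (1.91 ± 0.17, adjusted p = 0.00844). Ccr7, which guides maturing dendritic cells to lymph nodes, read 2667, 16170 and 7190. It was above the unstimulated array at both times but did not pass (2.02 ± 0.56, adjusted p = 0.111).

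Most maturation genes had a higher signal at 48 h than at 60 h. Of 19 tested genes of maturation and costimulation, 8 rose, 0 fell and 11 did not pass, with medians of 2.27 at 48 h and 1.40 at 60 h (13 rose and 1 fell without the 48 h array, 17 and 0 without the 60 h array). In 17 of the 19 the 60 h signal was under the 48 h signal, and 10 were at least 2-fold higher at 48 h, where 7.49% of all tested genes were. Cd40, the receptor through which T cells license dendritic cells, read 361.0 unstimulated, 3310 at 48 h and 1428 at 60 h (2.59 ± 0.43, adjusted p = 0.0368). Cd80, a ligand of Cd28, read 271.2, 1312 and 960.6 (2.05 ± 0.28). Cd274, the inhibitory ligand PD-L1, read 2064, 5240 and 4566 (1.25 ± 0.16). The last pair changed little between the LPS times, while Cd70, the ligand of Cd27, fell off from 1311 to 253.6 after 32.6 unstimulated (4.14 ± 0.69, adjusted p = 0.0363). Slamf1, Tnfrsf9, Il15ra and Cd200 also rose, by 3.10, 2.68, 2.39 and 1.81. Of 18 genes of NF-κB and its feedback, 2 rose, the inhibitor genes Nfkbib (495.1, 2442 and 1283) and Tnip1 (1127, 3021 and 2541), and 8 were 2-fold higher at 48 h than at 60 h. When the 48 h array was left out, 7 of the 18 rose and 1 fell, and when the 60 h array was left out, 13 rose and 0 fell. Icosl, the ligand of the costimulatory receptor Icos, was chosen after its values were seen: unlike most maturation genes it was lower at both times (366.8, 158.2 and 91.4) and did not pass (−1.61 ± 0.51, adjusted p = 0.143).

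One class I and no class II presentation gene passed. None of 11 tested class II presentation genes passed, with medians of 0.00 at 48 h and −0.20 at 60 h. H2-Ab1, a class II chain, read 9649 unstimulated, 9751 at 48 h and 8156 at 60 h, and Cd74, the invariant chain, read 14470, 14470 and 13110. H2-DMa, which helps load peptide, read 5233, 3043 and 2209 (−1.01 ± 0.25, adjusted p = 0.0880). H2-DMb2, its partner chain and also chosen after its values were seen, read 2459, 737.8 and 1011, over 2-fold lower at both times (−1.51 ± 0.68, adjusted p = 0.257). Of 11 class I presentation genes only the peptide transporter Tap1 passed, at 757.4, 1893 and 1562 (1.18 ± 0.18, adjusted p = 0.0297). No class II gene passed and 3 class I genes rose with the 48 h array left out. With the 60 h array left out, 1 class II gene rose and 5 fell, and 4 class I genes rose. None of 8 tested genes of LPS recognition and signalling passed (median 0.22), among them the TLR adaptor gene Myd88 at 2108, 954.2 and 1257.

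**Figure D4:**
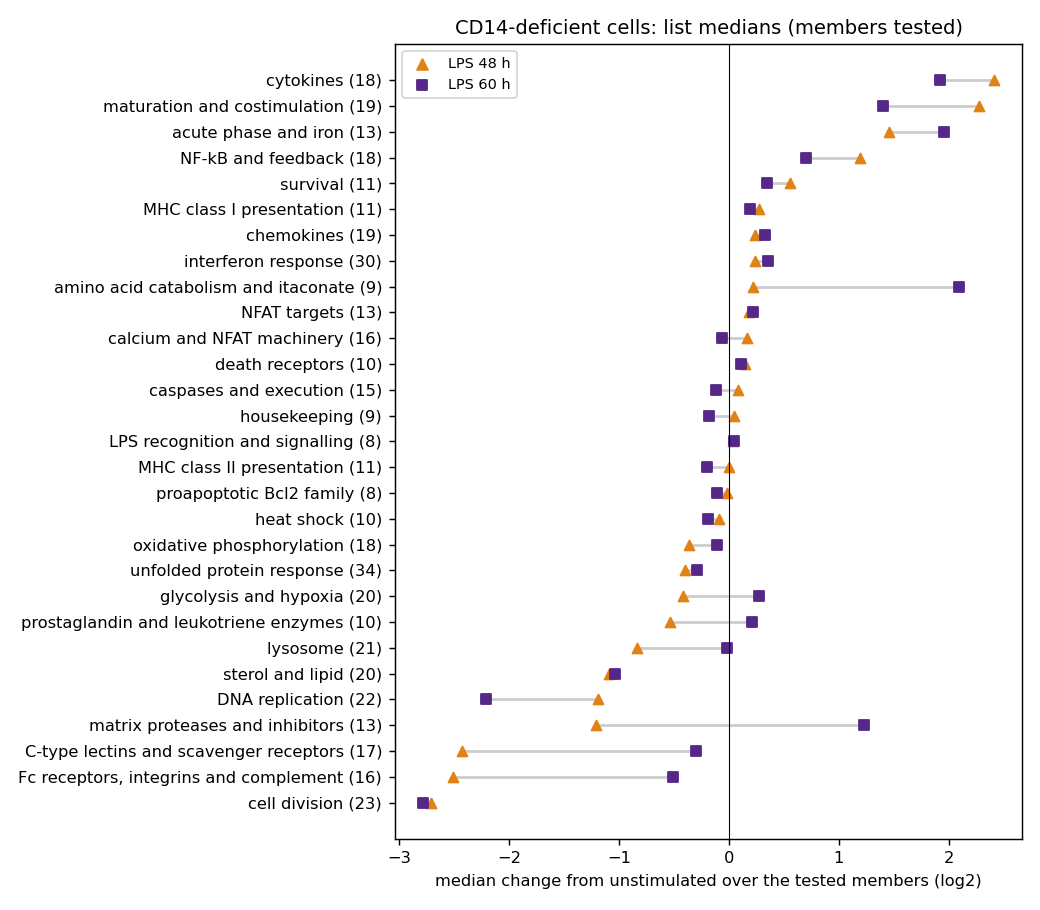
Median change from the unstimulated array (log2 of scaled signal) over the tested members of each gene list with at least 8 of them, at 48 h (orange triangle) and 60 h (purple square), with the number of members in parentheses. Cytokines (2.41 and 1.92) and maturation genes (2.27 and 1.40) lie furthest right at 48 h and cell division (−2.71 and −2.78) furthest left, while Fc receptor, lectin and matrix genes are lower at 48 h than at 60 h.

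Of 30 tested interferon response genes, 4 rose, beside 2.17% of all tested genes, and 26 did not pass. The median was 0.31 in the model (9 rose and 0 fell without the 48 h array, 11 and 4 without the 60 h array). Irf8, a transcription factor of dendritic cells, read 893.9 unstimulated, 8369 at 48 h and 4267 at 60 h (2.74 ± 0.27, adjusted p = 0.0118). Irf7, which amplifies interferon production, read 386.5, 1241 and 1209 (1.66 ± 0.30, adjusted p = 0.0439). Gbp2, a guanylate-binding protein, read 1874, 6330 and 4636 (1.53 ± 0.17), and Oasl1 read 94.8, 371.9 and 335.4 (1.90 ± 0.33). These 4 were higher on both LPS arrays. Rsad2, an antiviral enzyme also called viperin, read 2954, 735.4 and 2176, below the unstimulated array at both times (−1.22 ± 0.60, adjusted p = 0.287). Oas1a, which senses double-stranded RNA, read 2341, 1093 and 2225 (−0.59 ± 0.41, adjusted p = 0.443). The promoters of Gbp2, which rose, and Rsad2, which did not, are shown because each holds the interferon-stimulated response element, searched as GAAA, any 2 bases and GAAA in a row, on either strand. Capitals mark the match in the 250 bases before the RefSeq start (GRCm38.p6), Gbp2 at chr3:142620413-142620662, plus strand and Rsad2 at chr12:26456453-26456702, minus strand.
Gbp2: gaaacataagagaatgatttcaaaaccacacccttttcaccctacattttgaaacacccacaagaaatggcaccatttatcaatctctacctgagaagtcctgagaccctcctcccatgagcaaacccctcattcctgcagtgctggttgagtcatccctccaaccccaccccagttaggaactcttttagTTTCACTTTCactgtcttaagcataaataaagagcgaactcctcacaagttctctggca
Rsad2: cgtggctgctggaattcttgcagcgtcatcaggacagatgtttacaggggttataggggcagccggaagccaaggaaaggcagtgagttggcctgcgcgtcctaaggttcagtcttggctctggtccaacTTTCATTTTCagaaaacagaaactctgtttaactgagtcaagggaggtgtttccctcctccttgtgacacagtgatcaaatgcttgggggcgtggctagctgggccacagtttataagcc
The match begins 59 bases before the start in Gbp2 and 120 bases before it in Rsad2. Of 23 tested interferon response genes with a promoter in the table, 14 (60.9%) held this motif in the window of 300 bases, beside 3.99% of all genes, 4.16% of the tested genes, 8 of 118 that rose (6.78%) and 7 of 113 that fell (6.19%).

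Some enzymes that make lipid mediators and break down amino acids rose. Of 10 prostaglandin and leukotriene genes, 3 rose and 2 fell (4 and 2 without the 48 h array, 3 and 4 without the 60 h array). Beside Ptgs2, Ptges, which completes prostaglandin E2, read 56.8 unstimulated, 216.8 at 48 h and 499.6 at 60 h (2.53 ± 0.41), and Ltc4s, which makes leukotriene C4, read 414.4, 2163 and 1525 (2.13 ± 0.35). The prostaglandin D synthase Hpgds read 265.0, 16.7 and 28.5 and fell by 3.60 ± 0.44, and Lta4h, which makes leukotriene B4, read 3604, 1477 and 1669 (−1.20 ± 0.22, adjusted p = 0.0443). Both LPS arrays lay below the unstimulated one for these last genes. Of 9 amino acid genes, 4 rose and 0 fell (6 and 2 without the 48 h array, 4 and 0 without the 60 h array): Hdc; Ido1, the first enzyme of tryptophan breakdown (30.3, 544.3 and 448.0, a rise of 4.03 ± 0.49); the arginase Arg2 (81.3, 793.0 and 347.2, 2.69 ± 0.39); and Acod1, which makes itaconate (1087, 4363 and 8499, 2.49 ± 0.42). Ido1 and Arg2 were higher at 48 h and Acod1 at 60 h.

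Of 13 acute phase and iron genes, 4 rose and 0 fell, with 7 at least 2-fold higher at 60 h than at 48 h, where 9.86% of all tested genes were (10 rose and 1 fell without the 48 h array, 7 and 2 without the 60 h array). Lcn2, a protein that binds bacterial siderophores, read 373.3 unstimulated, 6533 at 48 h and 6172 at 60 h (4.09 ± 0.29, adjusted p = 0.00495). Orm1, an acute phase glycoprotein, read 117.7, 779.2 and 4010 (3.91 ± 0.73, adjusted p = 0.0475), with most of its rise at 60 h. Hmox1, which degrades heme, moved in opposite directions, at 1605, 711.3 and 4982, and did not pass (0.23 ± 0.86). Tfrc, the transferrin receptor, was lower on both LPS arrays (2159, 979.3 and 1115) and just missed the threshold (−1.05 ± 0.21, adjusted p = 0.0534).

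Uptake receptors were among the largest falls. Of 17 C-type lectin and scavenger receptor genes, 6 fell and 1 rose, with medians of −2.43 at 48 h and −0.30 at 60 h (6 fell and 3 rose without the 48 h array, 13 and 3 without the 60 h array). Mrc1, the mannose receptor, read 2701 unstimulated, 15.1 at 48 h and 55.9 at 60 h and fell by 6.54 ± 0.89 (adjusted p = 0.0250). Cd209a, the mouse relative of DC-SIGN, read 501.2, 3.58 and 16.4 and fell (adjusted p = 0.0212); its 48 h signal is under the floor, which sets the size of the fitted fall, so none is given. Asgr2, a subunit of the asialoglycoprotein receptor, read 2540, 92.1 and 45.2 and fell by 5.30 ± 0.61. In these 3 genes each LPS array was far below the unstimulated one. The galactose lectins Mgl2 (3438, 304.9 and 245.8) and Clec10a (1086, 93.1 and 88.1) fell by 3.65 ± 0.54 and 3.58 ± 0.54, and Clec4b1 (770.5, 26.7 and 89.9) fell by 3.97 ± 0.63. The LPS values of Mgl2 and Clec10a were close to each other, and that of Clec4b1 was lower at 48 h. The gene that rose was Clec4e, or Mincle, which senses mycobacterial glycolipid, at 2580, 8985 and 13460 (2.09 ± 0.32, adjusted p = 0.0290).

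Fcrls, an Fc receptor-like protein and the gene of 16 Fc receptor, integrin and complement genes that fell, read 1432 unstimulated, 24.7 at 48 h and 37.4 at 60 h and fell by 5.56 ± 0.94 (adjusted p = 0.0375). Ngp, a neutrophil granule protein, read 890.5, 55.7 and 34.9 (−4.34 ± 0.37, adjusted p = 0.00728). Cldn1, a tight junction protein, read 842.3, 58.9 and 24.1 (−4.48 ± 0.50). All 3 were far lower on both LPS arrays. The other large falls were those of the lysosomal exonuclease Pld4 (1150, 45.6 and 86.2), the kallikrein Klk1b21 (900.8, 59.1 and 44.1), the lectin Cd209c (248.6, 16.9 and 20.1) and Lrr1 (485.1, 43.3 and 25.2), with fitted changes of −4.20, −4.14, −3.75 and −3.88.

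Nearly all genes of cell division fell, with like medians at both times. Of 23 tested, 21 fell, 0 rose and 2 did not pass, with medians of −2.71 at 48 h and −2.78 at 60 h, beside 2.01% of all tested genes that fell. With either LPS array left out 22 fell. Ccnd1, the cyclin that starts the cycle, read 2046 unstimulated, 100.0 at 48 h and 233.5 at 60 h (−3.74 ± 0.44). Ube2c, which marks mitotic cyclins for destruction, read 2034, 159.0 and 198.2 (−3.52 ± 0.34, adjusted p = 0.0118). Ccnb2, a cyclin of mitosis, read 729.0, 72.5 and 67.3 (−3.38 ± 0.50). Both LPS arrays were far below the unstimulated one in each, and Ccnd1 was lowest at 48 h. The other fitted changes were −3.18 ± 0.43 for Cdc20, which activates the anaphase-promoting complex, −3.23 ± 0.44 for the mitotic motor Kif11, −3.34 ± 0.44 for Cdca3 and −2.98 ± 0.44 for the kinase Plk1. The motor gene Kif20a (254.1, 10.2 and 31.6) also fell, with its 48 h signal under the floor.

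Promoters of Ube2c, Cdc20 and Kif11 are shown because genes of late cell cycle often hold a cell cycle homology region and CCAAT boxes near the start. Capitals mark TTTGAA, the core letters of that region, and CCAAT, each on either strand, in the 250 bases before the RefSeq start (GRCm38.p6): Ube2c at chr2:164769679-164769928, plus strand, Cdc20 at chr4:118437344-118437593, minus strand and Kif11 at chr19:37376132-37376381, plus strand.
Ube2c: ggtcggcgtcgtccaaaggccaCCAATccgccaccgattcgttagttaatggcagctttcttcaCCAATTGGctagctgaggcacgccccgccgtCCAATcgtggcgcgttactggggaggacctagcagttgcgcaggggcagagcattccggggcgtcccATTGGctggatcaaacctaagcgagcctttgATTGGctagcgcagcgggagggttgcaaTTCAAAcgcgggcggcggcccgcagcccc
Cdc20: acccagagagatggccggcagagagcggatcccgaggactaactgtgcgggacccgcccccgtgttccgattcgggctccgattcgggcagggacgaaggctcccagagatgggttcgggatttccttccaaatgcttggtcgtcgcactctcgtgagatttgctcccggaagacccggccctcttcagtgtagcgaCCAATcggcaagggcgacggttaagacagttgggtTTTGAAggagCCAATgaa
Kif11: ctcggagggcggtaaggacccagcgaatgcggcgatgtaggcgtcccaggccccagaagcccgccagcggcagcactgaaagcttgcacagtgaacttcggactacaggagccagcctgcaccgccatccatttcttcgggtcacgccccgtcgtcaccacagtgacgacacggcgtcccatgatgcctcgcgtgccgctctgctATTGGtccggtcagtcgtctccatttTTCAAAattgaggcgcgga
The letters TTTGAA begin 29, 18 and 19 bases before the start in Ube2c, Cdc20 and Kif11. CCAAT was found 6 times in Ube2c, with 1 pair of overlapping matches, 2 times in Cdc20 and 1 time in Kif11. In the window of 300 bases, 14 of 18 cell division genes with a promoter (77.8%) held TTTGAA and 15 (83.3%) held CCAAT. The letters TTTGAA were in 39 of 113 genes that fell (34.5%), in 17 of 118 that rose (14.4%), in 864 of 6161 tested genes with a promoter and in 20.2% of all genes of the table. CCAAT was in 54.9%, 48.3%, 42.9% and 41.1% of the same sets.

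DNA replication genes were also lower, and more so at 60 h. Of 22 tested, 5 fell and 0 rose, with medians of −1.19 at 48 h and −2.21 at 60 h. All 22 fell with the 48 h array left out and 15 with the 60 h array left out. Rrm2, which makes deoxynucleotides, read 2471 unstimulated, 303.2 at 48 h and 289.5 at 60 h (−3.06 ± 0.35, adjusted p = 0.0178). Mcm5, a part of the replicative helicase, read 732.4, 119.2 and 97.2 (−2.77 ± 0.50). The fitted changes of Tk1, Pclaf and Pola1 were −2.79, −2.40 and −2.12. Mcm6, another helicase subunit, read 2240, 2210 and 718.2: it was lower at 60 h alone and did not pass (−0.83 ± 0.65).

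Apoptosis is the subject of the series. In cells without CD14, none of 8 tested proapoptotic Bcl2 relatives and none of 10 death receptor genes passed. Of all tested genes 2.17% rose and 2.01% fell, so 0 calls in lists this short show nothing particular to them. The caspase and survival counts below were not tested against these shares. Bcl2l11, which encodes the death-inducing protein Bim, read 806.0 unstimulated, 3451 at 48 h and 1045 at 60 h (1.24 ± 0.52, adjusted p = 0.235). Bid, its relative downstream of death receptors, read 903.9, 322.2 and 514.1 (−1.15 ± 0.28, adjusted p = 0.0820). Bim was thus high on the 48 h array alone. Among 15 genes of caspases and execution the riser was Casp4, an inflammatory caspase that senses LPS inside the cell (322.7, 1201 and 1410, 2.01 ± 0.26, adjusted p = 0.0221). Of 11 survival genes 2 rose: Cflar, which blocks caspase-8 (299.5, 1351 and 736.5), and the kinase Pim3 (409.0, 1157 and 1366), by 1.74 ± 0.25 and 1.62 ± 0.25. The counts that follow come from the fits with either LPS array of CD14-deficient cells left out. Those fits called far larger shares of all tested genes, as given above. The counts were not tested against those shares, so they show no response particular to these lists. With the 48 h array left out, 1 proapoptotic, 0 death receptor, 2 caspase and 2 survival genes rose and 0 members of these lists fell. With the 60 h array left out, 2 proapoptotic genes rose and 3 fell, 3 death receptor genes rose and 2 fell, 4 caspase genes rose and 1 fell, and 5 survival genes rose and 0 fell.

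Of the 4 genes the series followed up, none passed. Nr4a1, an immediate early nuclear receptor, read 95.1 unstimulated, 61.5 at 48 h and 29.8 at 60 h. Gadd45g, a stress-induced growth inhibitor, read 550.3, 256.2 and 507.1. Ddit3, the stress factor CHOP, read 446.6, 479.3 and 1102. Tia1, an RNA-binding protein, read 408.1, 582.8 and 359.2, so only Nr4a1 was well below the unstimulated array at 60 h and only Ddit3 well above it. With the 48 h array left out, the fitted log2 changes were 1.37 for Ddit3 and −1.94 for Nr4a1. With the 60 h array left out, that of Gadd45g was −1.08. These fits no longer count the departure of the CD14-deficient LPS pair in the spread. The Nr4a1 signals given above all lie under 99.2, the pooled median that set which genes were tested. Nr4a1 was thus tested because of its signal on other arrays. Of 13 tested NFAT target genes, Ptgs2, Ptges and the stress gene Gadd45b rose, the last from 1009 to 4370 and 3806 (2.02 ± 0.16, adjusted p = 0.00692), and 0 fell. Egr1, an early response factor, read 6096, 1027 and 464.7 (−3.14 ± 0.79, adjusted p = 0.0888). Of 16 genes of calcium and NFAT signalling, the Src family kinase gene Fgr (965.7, 161.6 and 212.6) and the NFAT gene Nfatc1 (545.4, 197.3 and 193.9) fell, by 2.38 ± 0.34 and 1.48 ± 0.27.

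Few stress and metabolic genes passed outside the sterol and lipid list, beside 2.17% of all tested genes that rose and 2.01% that fell. The counts were not tested against these shares. Of 34 genes of the unfolded protein response 1 rose, the factor Atf5 (477.1, 1212 and 1174, 1.32 ± 0.25, adjusted p = 0.0472), and the median was −0.46. Hspa5, the main chaperone of the endoplasmic reticulum, read 11870 unstimulated, 7954 at 48 h and 7564 at 60 h (−0.61 ± 0.15, adjusted p = 0.0866). Leaving out the 48 h array, 4 of the 34 rose and 7 fell, and leaving out the 60 h array, 5 rose and 16 fell. None of 10 heat shock genes and none of 18 oxidative phosphorylation genes passed, and of 20 glycolysis and hypoxia genes only Vegfa did. Leaving out the 60 h array, 8 of the 18 oxidative phosphorylation genes fell, as did 12 of the 20 glycolysis and hypoxia genes while 4 rose. Leaving out the 48 h array, 0 and 0 fell and 0 and 5 rose. Of 20 sterol and lipid genes 3 fell and 1 rose (8 and 1 without the 48 h array, 13 and 1 without the 60 h array). Fdps, an enzyme of cholesterol synthesis, read 2732, 401.6 and 579.1 (−2.50 ± 0.45), and the fatty acid synthase Fasn read 1354, 389.4 and 276.3 (−2.04 ± 0.31). Scd1, which desaturates fatty acids, fell by 1.42 ± 0.27, while Abca1, the cholesterol exporter, read 1861, 3467 and 6093 (1.30 ± 0.25, adjusted p = 0.0484). Fdps, Fasn and Scd1 were thus lower and Abca1 higher on both LPS arrays.

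The 48 h and 60 h arrays differed in whole classes of genes. At 60 h 737 genes were at least 2-fold above 48 h (9.86%) and 560 were at least 2-fold below it (7.49%), 17.4% in all, against 6.57% between the wild-type LPS arrays, 2.53% with thapsigargin in CD14-deficient cells and 1.54% with thapsigargin in wild type. There is 1 array at each time, so no test was made. Fc receptor, integrin and complement genes were all lower at 48 h than at 60 h (16 of 16, and 14 at least 2-fold), with medians from unstimulated of −2.51 and −0.51. The same held for 20 of 21 lysosomal genes (medians −0.84 and −0.02) and 12 of 12 macrophage markers (−2.53 and −0.79), beside 3541 of all 7474 tested genes. Of this last list Csf1r, the receptor of a macrophage growth factor, read 10150, 4199 and 9905, and Cd68 read 7993, 1702 and 9656. Itgb2, the shared chain of leukocyte integrins, read 10050, 3744 and 9706, and the complement gene C1qb read 7344, 279.6 and 1345. In Csf1r, Cd68 and Itgb2 the 60 h signal was close to the unstimulated one. Of the 21 lysosomal genes 1 fell, the glucuronidase gene Gusb (5260, 1716 and 3265). With the 60 h array left out, 14 of the 16 Fc receptor, integrin and complement genes, 17 of the 21 lysosomal genes and 11 of the 12 macrophage markers fell. With the 48 h array left out, 3, 1 and 4 of them did.

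The 13 tested genes of matrix proteases and their inhibitors had medians of −1.21 at 48 h and 1.23 at 60 h, and 9 were at least 2-fold higher at 60 h. The 2 that rose regulate plasmin: Serpinb2, an inhibitor of plasminogen activators, read 531.5 unstimulated, 2004 at 48 h and 6237 at 60 h (2.73 ± 0.36, adjusted p = 0.0231), and the activator gene Plat, under the floor at 8.35 unstimulated, read 609.1 and 184.6, at least 25.0-fold higher. Mmp13, a collagenase, read 2983, 239.4 and 2566, and Timp2, an inhibitor of matrix proteases, read 2244, 393.9 and 3026, both low at 48 h alone. When the 48 h array was left out, 5 of the 13 rose and 0 fell, and when the 60 h array was left out, 4 rose and 7 fell.

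The genes furthest apart show the same division. Mmp19, a matrix metalloprotease, read 555.1 unstimulated, 31.2 at 48 h and 1356 at 60 h, and Plau, the urokinase plasminogen activator, read 1312, 18.8 and 757.8. Ctsk, a lysosomal collagenase, read 2309, 173.4 and 3601. In each the 48 h signal was far below the unstimulated one. The 60 h signal was above it in Mmp19 and Ctsk and below it in Plau (−0.79 on the log2 scale). Trem2, a lipid receptor of macrophages, read 2336, 257.6 and 4174, and Rbp4, which carries retinol, read 5989, 248.2 and 6466. Nrp1, a semaphorin co-receptor, read 2104, 74.4 and 1614. The other genes with the highest 60 h signal against 48 h were Atp1b1, Chchd10, Dio2 and Gask1b, apart by 4.30, 4.10, 4.08 and 4.06 on the log2 scale.

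Other genes were far higher at 48 h. Calcb, a neuropeptide gene, read 115.0 unstimulated, 763.6 at 48 h and 48.6 at 60 h. Tnfsf4, the costimulatory ligand of OX40, read 196.5, 2058 and 336.9. Traf4, a signalling adaptor, read 32.9, 487.0 and 72.0, so that the last pair were above the unstimulated array at both times but mainly at 48 h. Mx2, an interferon-induced GTPase, read 18.8, 169.3 and 14.4, and S100a9, a neutrophil calcium-binding protein, was below the unstimulated 3692 at both times, with 238.5 and 24.0. The others were Insm1, Hepacam2, Dpysl5, Slc27a3 and Zfp296, with 60 h minus 48 h differences from −2.78 to −2.51. In 21 genes the change was at least 2-fold in opposite directions at the 2 times, 16 of them down at 48 h and up at 60 h and 5 the reverse. Atp1b1, a sodium pump subunit (459.9, 72.0 and 1421), Cck (214.8, 37.7 and 602.1), Ak1 (121.6, 46.3 and 349.0) and Dusp13 (52.6, 17.5 and 124.9) led the former with Mmp19, and Calcb the latter.

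Markers of other cells were followed beside these results. The summed signal of the 12 measured macrophage markers was 62100 unstimulated, 21700 at 48 h and 46200 at 60 h, where the other 7 arrays ranged from 28600 to 56100. That of the 14 dendritic cell markers was 49100, 75100 and 54300 (40600 to 54100 on the other 7). Of these, Flt3, the receptor for a growth factor of dendritic cells (53.8, 1149 and 334.5), and Irf8 rose, and the lectins Cd209a and Clec10a fell. The 5 measured B cell markers summed to 371, 2310 and 1600, against 151 to 652 elsewhere: the immunoglobulin heavy chain gene Ighm read 295.1, 1789 and 1364, Ms4a1, which encodes CD20, read 41.3, 341.5 and 113.2, and none passed. Of 6 tested neutrophil markers 1 rose, Lcn2, and 2 fell, Ngp and S100a8 (5674, 1242 and 1812). Of 3 tested stromal markers, the matrix proteoglycans Lum (0.562, 261.1 and 142.7) and Dcn (7.87, 89.2 and 415.7) rose, each by at least 14.4-fold above the floor. Fn1, the brightest of the 3, was lower on both LPS arrays (2276, 1340 and 1812) and did not pass. The 8 measured stromal markers summed to 2380, 1800 and 2500 (618 to 3290 on the other 7 arrays). The 7 measured mast cell and basophil markers summed to 447, 2660 and 1270 (811 to 2480 on the other 7 arrays); of the tested ones Hdc rose and Kit, Gata2 and Cpa3 did not pass. Siglecf, an eosinophil marker, fell by 2.89 ± 0.45 (411.3, 52.4 and 59.1). No T cell, NK cell or erythroid marker was bright enough to test, with summed signals of 70.6 and 64.6 (T and NK) and 23.2 and 65.5 (erythroid) on the 48 h and 60 h arrays. The part of these cells in the results was not tested.

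The response of cells without CD14 was set against that of wild-type cells in the same model. No gene passed in the test of the difference (0%, limma), with 613 at an unadjusted p under 0.05, 313 lower and 300 higher in CD14-deficient cells. Cd14, the deleted gene, was among those tested. It rose by 3.41 on the log2 scale in wild type and stayed under the floor without CD14, a difference of −3.41. The test, with 3 residual degrees of freedom, thus missed a known difference. That no gene passed does not show that the genotypes responded alike. Across the 7474 genes, which are not independent replicates, the changes of the genotypes correlated at 0.571 at 48 h and 0.773 at 60 h. The median change of 30 interferon response genes was 0.31 without CD14 and 1.63 in wild type, where 19 rose (7.69% of all tested genes did). Of the 30, 17 differed at an unadjusted p under 0.05 (limma), beside 613 of all 7474 tested genes. For 19 maturation genes the medians were 1.94 and 1.62, for 18 cytokine genes 2.05 and 3.16, and for 23 cell division genes −2.71 and −3.53. Taken by array, the maturation median without CD14 was 2.27 at 48 h and 1.40 at 60 h. It was thus above the fitted wild-type median at 48 h alone. With the 48 h array left out 17 genes passed the test of the difference, and with the 60 h array left out 1367 did.

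The largest differences at an unadjusted p under 0.05 included chemokine and interferon-induced genes. Csf3, given above at 67.1 and 130.4 with LPS, read 5.52 unstimulated and 1837 and 3656 with LPS in wild type (adjusted p = 0.0732 for the difference). Ccl7 changed by −3.38 and 0.35 and Ccl8, another monocyte attractant, by 0.58 and 4.19. The interferon-inducible genes Ms4a4c and Ifi204 changed by 0.15 and −0.80 without CD14 and by 3.93 and 2.61 in wild type. Each of these was thus lower or less raised without CD14. Gprc5b and Emp1 had differences of −3.53 and −3.51. Mmp10, a matrix protease, was under the floor unstimulated in both genotypes and read 4.33 and 77.0 with LPS without CD14 and 254.9 and 925.5 in wild type. In the opposite direction Flt3 changed by 3.53 without CD14 (adjusted p = 0.0438) and by −0.61 in wild type, a difference of 4.13 ± 0.90. C1s1 read 15.7 and 40.3 in wild type with LPS, against the 241.7 and 448.5 given above. Ube2c read 1312 unstimulated and 5.66 and 8.87 with LPS in wild type, both under the floor. Septin4, Frzb, 4930520O04Rik, Plek2 and Hmgn3 also had differences above 0, from 3.13 to 3.79.

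**Figure D5:**
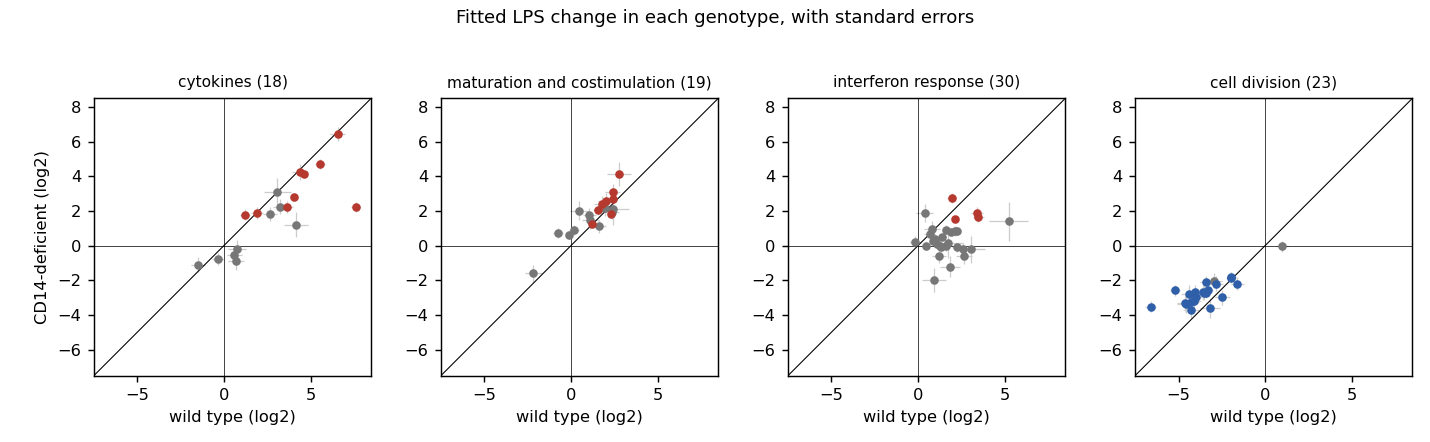
Fitted LPS change in wild-type cells (x axis) and CD14-deficient cells (y axis), in log2 with standard errors, for the tested members of 4 lists; red rose, blue fell and grey did not pass in CD14-deficient cells, and the diagonal marks equal change. Maturation genes lie mostly above the diagonal (medians 1.94 and 1.62, median difference 0.56), interferon response genes mostly below it (0.31 against 1.63, median difference −1.3). The maturation median without CD14 was 2.27 on the 48 h array and 1.40 on the 60 h array.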

How the data were processed

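Labelled cRNA of 10 samples was hybridised to 1 Affymetrix array each. The deposited values are linear signal intensities per probe set, made with MAS5 per the submitters' processing notes, with the version, scaling target and masking not given in the sources used here. Of 22690 probe sets, 64 controls were set aside, 20380 carried 1 gene symbol (platform annotation) and 2310 several or none. Each array was scaled to a trimmed mean of 509 (2% off each end); the deposited means differed by up to 1.25-fold. Signals were raised to a floor of 13.4, the 25th percentile, and log2 transformed. The brightest probe set stood for a gene, and 7474 of 12393 genes above the pooled median of 99.2 on at least 2 arrays were tested in R 4.3.3 with limma 3.58.1. The model has 6 levels (genotype by unstimulated, LPS, LPS with thapsigargin) and a centred term for 60 against 48 h shared by the stimulated conditions, leaving 3 residual degrees of freedom, with an intensity trend and Benjamini-Hochberg adjustment over all tested genes at 0.05. It was tested on simulated data with independent noise on each array. That simulation held no variation between cultures and no pair of times set apart, so it is no check on these. No sample was left out of the main results. "At least" folds set the mean of the measured arrays against the floor.

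Named genes are the 14 largest rises and 14 largest falls at both times, up to 8 members of each list (called ones first, then by level), the 10 furthest apart each way between 48 and 60 h, the 8 largest differences each way from wild type at an unadjusted p under 0.05, Cd14 with the 4 followed-up genes, and the 6 clearest of opposite direction. The comparison, gene lists and this rule were chosen with earlier results of these data known. Promoters are RefSeq's (GRCm38.p6), 250 bases before to 50 after the start. No interval for depth applies to arrays; their number limits the precision.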

Additional observations from a re-analysis of the deposited data

Results flagged for a closer look

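In 13 of 300 named genes, both LPS arrays of CD14-deficient cells moved one way from their unstimulated array and both wild-type LPS arrays the other way, with a difference of at least 2 on the log2 scale and an unadjusted limma p under 0.05. Opposite directions alone were found in 30 of the 300. Any change above or below 0 counted as a direction, and some were small. Without CD14 at 60 h, Gadd45g changed by −0.118 and Irf4 by 0.218. None of the 13 differences passed the adjusted limma test, with adjusted p-values from 0.129 to 0.566. How many of all tested genes meet the same rule was not counted. The named genes are also not a neutral set. Gprc5b, Ifi204, Flt3, Frzb, Septin4, 4930520O04Rik and Hmgn3 were named for the size of their difference from wild type. They were thus chosen on nearly the same values, and the count does not show how common such genes are.

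The difference, CD14-deficient minus wild type, was below 0 for 6 genes. Ccl2, the monocyte chemokine, changed by −3.16 at 48 h and −2.48 at 60 h without CD14 and by 0.0955 and 0.319 in wild type (difference −3.03). Rsad2, the antiviral enzyme viperin, had a difference of −3.07 and the interferon-inducible Ifi204 one of −3.42. Nr4a1 and Gadd45g, which the series followed up, had differences of −3.26 and −2.80. Gprc5b, an orphan receptor, had −3.53.

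It was above 0 for the other 7. Flt3, a receptor of dendritic cell growth, changed by 4.42 and 2.64 without CD14 and by −0.424 and −0.790 in wild type (difference 4.13). Irf4, a transcription factor of dendritic cell subsets, had a difference of 2.05. The values were 3.79 for Frzb, 3.78 for Septin4, 3.46 for 4930520O04Rik, 3.13 for Hmgn3 and 2.46 for Slc27a3.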

How the results depend on the processing

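The count of 312 called genes ranged from 290 to 341 with values as deposited and with quantile normalization, and was 155 under a strict filter. Genes that fell numbered 315 with the floor at the pooled median, 239 with no filter, 45 with the strict filter and 86 with the 5 CD14-deficient arrays alone. Genes that rose numbered 76 with no filter. Giving the 48 and 60 h arrays levels of their own called 2294 genes (1154 rose, 1140 fell). Leaving out each stimulated array in turn gave 22 to 2883 calls, 19 to 1525 rises and 3 to 1358 falls, and 0 to 1367 calls for the difference from wild type, which had 1 call with no floor, 2 with the floor at the pooled median and 192 with no filter. Genes 2-fold down at both times numbered 538 with no filter and 185 with the strict filter. At 1.5-fold 1488 genes moved one way at both times (749 up, 739 down) and 2831 differed between the times. At 3-fold these were 336 (154 up, 182 down) and 466. Tia1, which did not pass, went from 0.16 to −0.46 without the 48 h array and 0.79 without the 60 h array, each fitted with the shift between times that the other conditions share. Over 102 of the named genes, 98 of them called, and 19 settings, 1288 values kept their direction and side of the threshold, 614 kept the direction but lost the call, 5 gained one and 1 reversed. The counts within lists without either LPS array of CD14-deficient cells were added after seeing the data. Leaving out any stimulated array takes away a degree of freedom and takes the departure of its pair out of the spread. The CD14-deficient LPS pair was the furthest apart, with 17.4% of genes at least 2-fold different. Other causes were not tested. No paired analysis was possible because each condition has 1 array and the labels carry no replicate numbers. With 1 array a condition, the spread between cultures was not measured.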
